A study of Mus musculus with 12 samples.

Results

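The T cell receptor complex and the proteins that act just below it were followed through 10 genes: Cd3e, Cd3d, Cd3g and Cd247, which encode the signaling chains of the complex, Zap70, Lat, Themis and Skap1, which encode a kinase and adaptors of the first signaling steps, and Cd2 and Cd6, which encode surface receptors of T cells. The genes were chosen by name, and every probe that the array annotation ties to one of these symbols and to no other was taken. This gave 23 of the 45281 probes on the array, for 10 of the 11971 genes measured. A probe counted as measured if its detection p was under 0.05 (signal above background) on at least 3 of the 12 arrays, which held for all 23 probes of these genes and for 23054 probes in all. In the prostate leukocyte samples of this study, the transcripts of all 10 genes were lowest in the group labelled Allo/Y. They were higher in the groups labelled Tumor and Tumor+Allo/Y, and highest 28 days after the combined transfer. On the brightest probes of the 9 genes other than Themis, the combined transfer exceeded Allo/Y at 1 week by 1.41 to 3.14 on the log2 scale, and the 28-day samples exceeded Allo/Y by 3.00 to 4.40. Themis was not above background in Allo/Y. Genes carried by every leukocyte were also higher than in Allo/Y, on average by 2.27 in Tumor+Allo/Y, 2.07 in Tumor and 2.21 at 28 days. Relative to these leukocyte genes, the mean of the 10 genes in Tumor+Allo/Y and in Tumor overlapped Allo/Y. Only the 28-day samples lay above Allo/Y on that scale.

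The ligand-binding chains of the T cell receptor have no signaling motifs of their own. They assemble with CD3 epsilon, delta, gamma and a pair of zeta chains, the last encoded by Cd247, whose tails carry tyrosine motifs. After contact with antigen these motifs are phosphorylated and recruit the kinase ZAP-70, which phosphorylates the membrane adaptor LAT, on which further enzymes gather. These genes are used as marks of T cells, although natural killer cells also express Cd247, Zap70, Lat and Cd2.

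The samples are CD45+ cells (CD45 is a surface protein of leukocytes) from the prostate of C57Bl/6 TRAMP mice, in which the rat probasin promoter drives SV40 early genes in prostate epithelium so that tumors arise there. All mice had received adoptive cell therapy (ACT), the transfer of T cells, and the groups are named as in the labels: Tumor+Allo/Y (d28) at 28 days, and Tumor+Allo/Y, Tumor and Allo/Y at 1 week, with 3 mice each. The labels do not spell out Allo/Y and give no age, and no group without a transfer was analysed here. Each mouse gave 1 Illumina BeadChip array. Samples are numbered as in the labels, 1 to 3 for Allo/Y, 4 to 6 for Tumor, 7 to 9 for Tumor+Allo/Y and 10 to 12 for Tumor+Allo/Y (d28). Transferred T cells and those of the host were not separated. Time and transfer differ together between Tumor+Allo/Y (d28) and the Tumor or Allo/Y groups, and cannot be told apart there. In such bulk samples fewer T cells and less RNA per T cell cannot be told apart either.

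Between 18981 and 21718 probes per array were above background, and arrays of the same group correlated at 0.905 to 0.990 over the measured probes. The lowest of these values belonged to Tumor, where sample 6 stood apart from samples 4 and 5. This array gave the lowest value of its group on 22 of the 23 probes described here. Tumor+Allo/Y sample 9 was likewise the lowest of its group on 22 probes, and sample 8 the highest on 17. The mean of the brightest probes of the 10 genes was 11.52, 11.17 and 10.93 in the Tumor+Allo/Y (d28) samples, 9.94, 10.23 and 9.13 in Tumor+Allo/Y, 10.21, 10.24 and 9.34 in Tumor, and 7.38, 7.59 and 7.57 in Allo/Y. On the brightest probes, sample 9 was thus the lowest of its group for 10 of 10 genes and sample 6 for 9 of 10, Themis being highest in sample 6, and results that rest on these arrays are given with and without them. The median SD of a brightest probe was 0.317 in Tumor+Allo/Y (d28), 0.619 in Tumor+Allo/Y, 0.544 in Tumor and 0.150 in Allo/Y, against 0.198, 0.259, 0.291 and 0.141 over all measured probes.

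Marker lists of other cell types moved with the groups. All 12 measured genes carried by every leukocyte (such as Ptprc, which encodes CD45, and Coro1a) were above background on each array, and all 12 were higher in each of the other groups than in Allo/Y. Their summed signal was 57269 to 66654 in Tumor+Allo/Y (d28), 62356 to 71692 in Tumor+Allo/Y, 57844 to 69679 in Tumor, and 18105 to 23501 in Allo/Y. The labelled leukocyte identity was therefore present on every array, with a lower level in Allo/Y. Of 10 epithelium markers 8 were measured, and their summed signal was 15223 to 24446 in Tumor+Allo/Y (d28), 6674 to 19849 in Tumor+Allo/Y, 2105 to 20973 in Tumor, and 33976 to 63997 in Allo/Y, with 6 to 8 of them above background on an array. Of 8 natural killer cell markers 6 were measured, all above background on all arrays, with sums of 2012 to 3254 in Tumor+Allo/Y (d28), 3594 to 4056 in Tumor+Allo/Y, 2951 to 5673 in Tumor, and 810 to 948 in Allo/Y. In Tumor+Allo/Y (d28), Tumor+Allo/Y and Tumor, 5, 6 and 6 natural killer cell markers were called higher and 1, 5 and 5 epithelium markers lower than in Allo/Y, against 18.7%, 20.2% and 17.7% of all genes called higher and 24.2%, 26.8% and 21.4% called lower. The part of these lists in the differences from Allo/Y given here was not tested. Epithelium markers were above background on every array although the samples are labelled CD45+.

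Values are background-corrected, quantile-normalized probe signals on the log2 scale, where a difference of 1 is a doubling. They compare samples on 1 probe and do not rank probes or genes by abundance. A difference was called at a Benjamini-Hochberg adjusted p under 0.05 over the 23054 probes, from 1 limma fit to all 12 arrays. Each ± beside a difference is its standard error and each ± beside a group mean is the SD of 3 mice. On the brightest probes, all 3 Tumor+Allo/Y (d28) samples lay above the other 9 samples for 10 of 10 genes, and over all probes of these genes for 20 of 23, against 5.78% of all measured probes. All 3 Allo/Y samples lay below the other 9 for 10 of 10 brightest probes and for 21 of 23 in all, against 19.4% of measured probes. The F test over the 4 groups called 21 of 23, against 42.9% of measured probes. Probes above background on no Allo/Y array, among them the brightest of Themis, passed the filter only through the other groups. Their place in the Allo/Y and F test counts is thus not free of the filter.

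**Figure D1:**
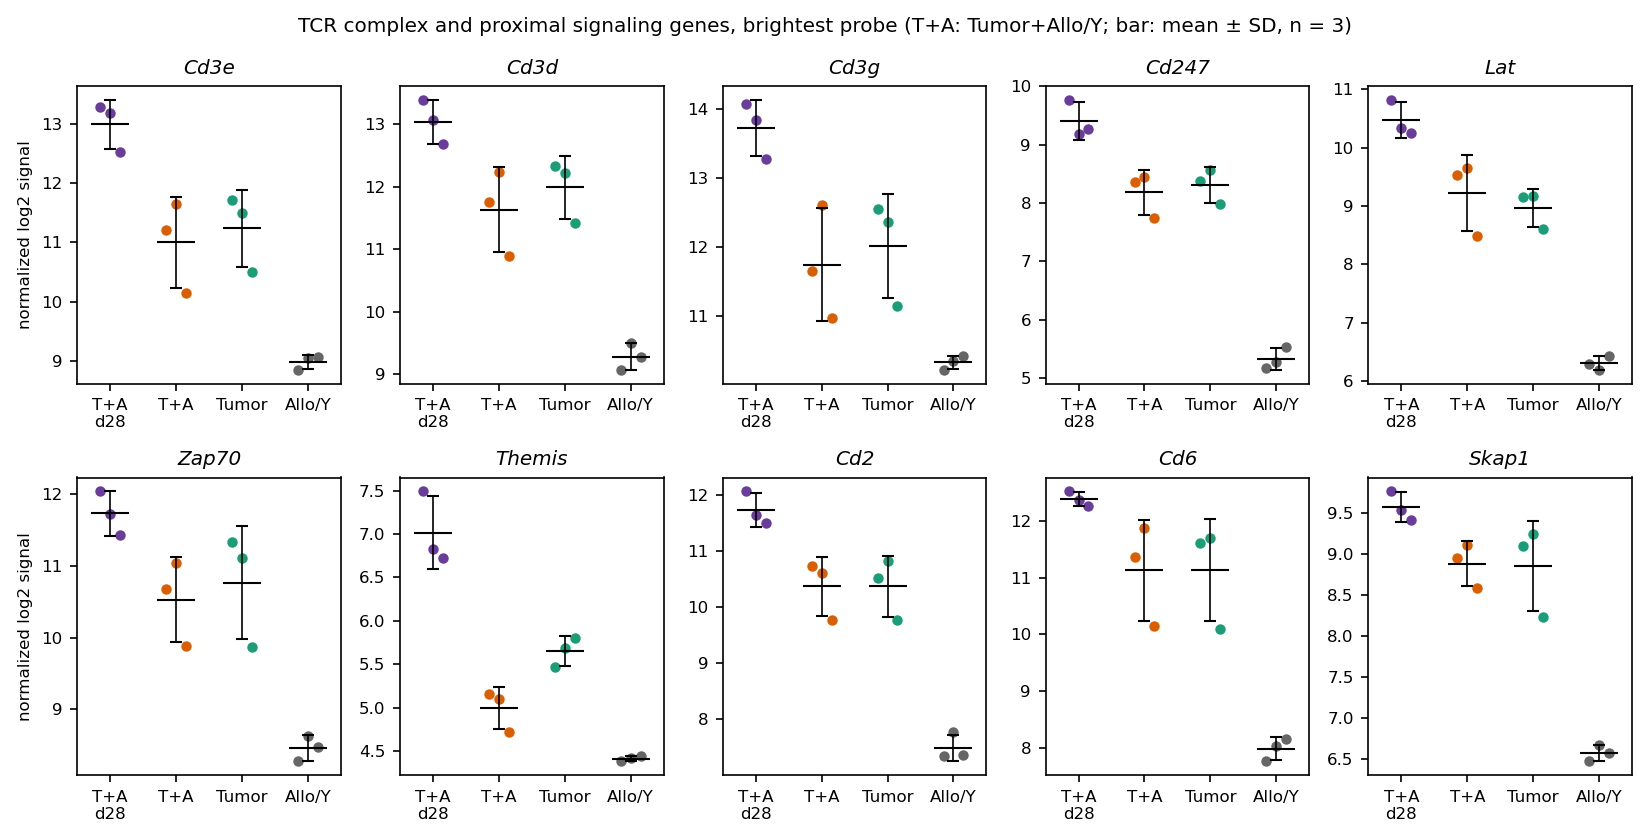
Normalized log2 signal of the brightest probe of each of the 10 genes in every sample, by group, with points for single mice and marks for the mean and SD of 3. For each gene the 3 Tumor+Allo/Y (d28) points lie above the other 9 and the 3 Allo/Y points below them, while the Tumor+Allo/Y and Tumor points overlap for all genes but Themis.

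The CD3 epsilon chain, which pairs with both CD3 delta and CD3 gamma, is encoded by Cd3e. Its brighter probe gave 13.28, 13.20 and 12.52 in Tumor+Allo/Y (d28), 11.22, 11.65 and 10.14 in Tumor+Allo/Y and 11.72, 11.50 and 10.50 in Tumor, against 8.84, 9.05 and 9.06 in Allo/Y. The 28-day samples were the 3 highest and the Allo/Y samples the 3 lowest of the 12, and both groups in between overlapped. Against Allo/Y, Cd3e rose by 2.02 ± 0.40 (adjusted p = 0.00279) in Tumor+Allo/Y and by 2.26 ± 0.40 (adjusted p = 0.00227) in Tumor. At 28 days it was 16.2-fold above Allo/Y, and 4.00-fold above the same transfer at 1 week (2.00 ± 0.40, adjusted p = 0.0333). Its other probe gave 12.88 ± 0.53 in Tumor+Allo/Y (d28), 10.75 ± 0.81 in Tumor+Allo/Y, 11.07 ± 0.67 in Tumor and 8.92 ± 0.09 in Allo/Y, and made the same calls except against Tumor, where it missed the threshold (1.80 ± 0.43, adjusted p = 0.0504). In the same comparison the brighter probe was called, at 1.76 ± 0.40 (adjusted p = 0.0459).

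Cd3d encodes the CD3 delta chain. Its single probe gave 13.38, 13.06 and 12.67 in Tumor+Allo/Y (d28), 11.76, 12.24 and 10.90 in Tumor+Allo/Y and 12.33, 12.22 and 11.41 in Tumor, against 9.07, 9.50 and 9.28 in Allo/Y. The groups did not overlap except Tumor+Allo/Y with Tumor, and the closest values on either side of the 28-day gap were 12.67 in Tumor+Allo/Y (d28) sample 12 and 12.33 in Tumor sample 4. Cd3d rose against Allo/Y by 2.35 ± 0.35 (adjusted p = 0.000594) in Tumor+Allo/Y, by 2.70 ± 0.35 (adjusted p = 0.000413) in Tumor and by 3.75 ± 0.35 (adjusted p = 2.96e-05) in Tumor+Allo/Y (d28). The difference between 28 days and 1 week of the combined transfer was 1.41 ± 0.35 (adjusted p = 0.0601) and was not called.

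Cd3g encodes the CD3 gamma chain, whose gene lies beside Cd3d. The signal was 14.07, 13.85 and 13.28 in Tumor+Allo/Y (d28), 11.65, 12.61 and 10.98 in Tumor+Allo/Y and 12.55, 12.36 and 11.16 in Tumor, against 10.22, 10.35 and 10.42 in Allo/Y. Allo/Y samples were again lowest, but by less than for the other chains: Tumor+Allo/Y exceeded them by 1.41 ± 0.43 (adjusted p = 0.0218) and Tumor by 1.69 ± 0.43 (adjusted p = 0.0127). The call for Tumor+Allo/Y held in 7 of 12 fits that left out 1 array, and the call for Tumor in all 12. The 28-day samples exceeded Tumor+Allo/Y by 1.99 ± 0.43 (adjusted p = 0.0406) and Allo/Y by 3.40 ± 0.43 (adjusted p = 0.000196), a 10.6-fold difference. The difference of 28-day samples from Tumor was 1.71 ± 0.43 (adjusted p = 0.0602) and was not called.

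Cd3e, Cd3d and Cd3g are neighbours in the mouse genome and had the same order of groups here, so the 250 bases upstream of each start in the RefSeq promoter table (build GRCm38.p6) are shown here. Each is written from 5′ to 3′ on the strand of its gene, Cd3e from chr9:45009612-45009861 (minus strand), Cd3d from chr9:44981536-44981785 (plus strand) and Cd3g from chr9:44980432-44980681 (minus strand). Capitals mark the ETS core GGAAG and its reverse complement CTTCC.
Cd3e: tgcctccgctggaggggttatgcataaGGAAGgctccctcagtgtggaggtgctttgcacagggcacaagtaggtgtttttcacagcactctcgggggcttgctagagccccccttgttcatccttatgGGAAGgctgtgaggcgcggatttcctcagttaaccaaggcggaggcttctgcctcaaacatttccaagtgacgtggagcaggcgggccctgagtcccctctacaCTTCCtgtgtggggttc
Cd3d: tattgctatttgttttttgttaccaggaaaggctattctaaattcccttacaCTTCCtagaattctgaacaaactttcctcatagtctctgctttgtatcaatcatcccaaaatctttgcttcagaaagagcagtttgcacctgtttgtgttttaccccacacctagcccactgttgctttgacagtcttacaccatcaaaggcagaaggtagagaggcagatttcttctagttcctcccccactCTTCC
Cd3g: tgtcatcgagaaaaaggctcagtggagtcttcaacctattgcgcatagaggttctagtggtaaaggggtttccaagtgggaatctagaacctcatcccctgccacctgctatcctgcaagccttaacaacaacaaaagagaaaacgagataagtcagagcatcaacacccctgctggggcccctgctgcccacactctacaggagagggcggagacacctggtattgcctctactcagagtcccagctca
The starts of Cd3g and Cd3d lie 1355 bases apart and the genes run away from each other, while Cd3e starts 27825 bases from Cd3d. The Cd3e window holds 3 ETS core matches, of which the nearest begins 17 bases before the start. The Cd3d window holds 2, of which the nearest begins 5 bases before its start and forms the last letters of the window. The Cd3g window holds none, but holds 2 matches of the E box CAGNTG, of which Cd3d has 1 and Cd3e none. Of the 10 genes 7 have an entry, with 10 windows in all, and motifs were searched on both strands. The ETS core was found in 6 of 10 windows against 64.1% of all 32851 windows of this length. The RUNX motif TGTGGT was found in 1, against 14% of all windows. The E box was found in 7, against 44.8%, and the TATA box TATAAA in none, against 12.4%. These matches describe the letters in the windows only.

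Cd247 encodes the CD3 zeta chain, which carries more of the tyrosine motifs than any other chain of the complex. Its brightest probe gave 9.78, 9.18 and 9.26 in Tumor+Allo/Y (d28), 8.35, 8.45 and 7.74 in Tumor+Allo/Y and 8.38, 8.57 and 7.98 in Tumor, against 5.17, 5.27 and 5.54 in Allo/Y. All 9 samples of the other groups lay well above Allo/Y, and the 28-day samples were highest. The gene was 7.24-fold higher in Tumor+Allo/Y than in Allo/Y (2.86 ± 0.24, adjusted p = 4.05e-05), 7.91-fold higher in Tumor (2.98 ± 0.24, adjusted p = 3.93e-05) and 16.9-fold higher in Tumor+Allo/Y (d28) (4.08 ± 0.24, adjusted p = 4.1e-06). The 28-day samples also exceeded Tumor+Allo/Y by 1.23 ± 0.24 (adjusted p = 0.0302) and Tumor by 1.10 ± 0.24 (adjusted p = 0.0420). The second probe averaged 7.62 ± 0.28, 6.41 ± 0.30, 6.65 ± 0.61 and 5.13 ± 0.10 in Tumor+Allo/Y (d28), Tumor+Allo/Y, Tumor and Allo/Y, and was called in the same comparisons except against Tumor. Its dimmest probe was above background on none of the Allo/Y arrays, so that only a bound is known there: it was at least 2.35-fold higher in Tumor+Allo/Y (d28) (adjusted p = 0.00161) and at least 1.37-fold higher in Tumor (adjusted p = 0.0424). Such a bound sets the mean of the brighter group against the lowest signal above background on the arrays of the dimmer one.

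Zap70 encodes the kinase that binds the phosphorylated CD3 and zeta tails. On its brightest probe the samples read 12.05, 11.72 and 11.43 in Tumor+Allo/Y (d28), 10.68, 11.03 and 9.88 in Tumor+Allo/Y and 11.33, 11.11 and 9.86 in Tumor, against 8.28, 8.63 and 8.48 in Allo/Y. Tumor sample 6 and Tumor+Allo/Y sample 9 lay below the other arrays of their groups, and the 28-day samples were highest. Zap70 rose against Allo/Y by 2.07 ± 0.38 (adjusted p = 0.00191) in Tumor+Allo/Y, by 2.31 ± 0.38 (adjusted p = 0.00161) in Tumor and by 3.27 ± 0.38 (adjusted p = 0.000122) in Tumor+Allo/Y (d28), but the 28-day difference from Tumor+Allo/Y was 1.20 ± 0.38 (adjusted p = 0.122) and was not called. The second probe gave 10.90 ± 0.38, 9.92 ± 0.52, 9.88 ± 0.71 and 7.60 ± 0.06 in Tumor+Allo/Y (d28), Tumor+Allo/Y, Tumor and Allo/Y and the same calls. Its dimmest probe, above background on no Allo/Y array, was at least 6.27-fold higher in Tumor+Allo/Y (d28), at least 3.37-fold higher in Tumor+Allo/Y and at least 3.39-fold higher in Tumor, with adjusted p of 2.66e-05, 0.000322 and 0.000446.

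Lat encodes the membrane adaptor that ZAP-70 phosphorylates. Its brighter probe gave 10.82, 10.34 and 10.24 in Tumor+Allo/Y (d28), 9.54, 9.65 and 8.48 in Tumor+Allo/Y and 9.15, 9.17 and 8.60 in Tumor, against 6.30, 6.20 and 6.44 in Allo/Y. Lat was the gene for which Tumor+Allo/Y stood highest relative to Tumor among the brightest probes, at 0.25 (95% interval −0.40 to 0.91), a difference that was not called. It was 7.51-fold higher in Tumor+Allo/Y than in Allo/Y (2.91 ± 0.30, adjusted p = 9.3e-05), 6.32-fold higher in Tumor (2.66 ± 0.30, adjusted p = 0.000212) and 17.8-fold higher in Tumor+Allo/Y (d28) (4.15 ± 0.30, adjusted p = 8.95e-06). At 28 days it exceeded Tumor by 1.49 ± 0.30 (adjusted p = 0.0317), and the difference from Tumor+Allo/Y missed the threshold at 1.24 ± 0.30 (adjusted p = 0.0553). The dimmer probe averaged 5.59 ± 0.67, 5.17 ± 0.44, 5.38 ± 0.53 and 4.58 ± 0.07 in Tumor+Allo/Y (d28), Tumor+Allo/Y, Tumor and Allo/Y, was above background on no Allo/Y array, and was called in 1 comparison only, Tumor+Allo/Y (d28) against Allo/Y, at least 1.52-fold higher (adjusted p = 0.0407).

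Themis encodes an adaptor that binds Grb2 and is needed for thymocytes to pass positive selection. Its brightest probe gave 7.49, 6.83 and 6.72 in Tumor+Allo/Y (d28), 5.16, 5.10 and 4.72 in Tumor+Allo/Y and 5.46, 5.69 and 5.80 in Tumor, against 4.38, 4.42 and 4.44 in Allo/Y. It was above background on all 3 arrays of Tumor+Allo/Y (d28) and of Tumor, on 1 of Tumor+Allo/Y and on none of Allo/Y. At 28 days it exceeded Tumor+Allo/Y by 2.02 ± 0.21 (adjusted p = 0.00347), a size that is uncertain since 2 of the 3 Tumor+Allo/Y arrays were not above background. It rose 2.57-fold over Tumor (1.36 ± 0.21, adjusted p = 0.0176), and it was at least 4.07-fold above Allo/Y (adjusted p = 1.37e-05). In Tumor it was at least 1.58-fold above Allo/Y (adjusted p = 0.00161). Tumor+Allo/Y was called higher than Allo/Y (adjusted p = 0.0410) with means of 4.99 ± 0.24 and 4.41 ± 0.03, mostly below background in both, so that no fold is given. This call held in 6 of 12 fits that left out 1 array and in 9 of 13 other settings. In the 1-week groups the 3 Tumor+Allo/Y samples lay below the 3 Tumor samples, as on 4.58% of measured probes. Against Tumor, Tumor+Allo/Y differed by −0.66 ± 0.21 (adjusted p = 0.99996), with an unadjusted p of 0.00869, the only such p under 0.05 among the 23 probes (4.29% of measured probes had one). The second probe was above background on all 28-day arrays, 2 Tumor arrays and no other, and was called at 28 days against Tumor+Allo/Y (at least 3.05-fold, adjusted p = 0.00493), against Tumor (1.79 ± 0.24, adjusted p = 0.0137) and against Allo/Y (at least 3.34-fold, adjusted p = 8.42e-05). The dimmest probe, also dark in Allo/Y, was called only against Allo/Y, at least 1.76-fold higher at 28 days (adjusted p = 0.0115).

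Cd2 encodes an adhesion receptor that binds CD48 in the mouse and aids T cell contacts. The single probe gave 12.07, 11.64 and 11.49 in Tumor+Allo/Y (d28), 10.74, 10.61 and 9.77 in Tumor+Allo/Y and 10.52, 10.82 and 9.77 in Tumor, against 7.34, 7.77 and 7.36 in Allo/Y. Cd2 had the same group mean of 10.37 in Tumor+Allo/Y and in Tumor, with a difference of 0.00 (95% interval −0.69 to 0.70). It rose against Allo/Y by 2.88 ± 0.31 (adjusted p = 0.000131) in Tumor+Allo/Y, by 2.88 ± 0.31 (adjusted p = 0.000183) in Tumor and by 4.24 ± 0.31 (adjusted p = 1.06e-05) in Tumor+Allo/Y (d28). The 28-day samples exceeded Tumor+Allo/Y by 1.36 ± 0.31 (adjusted p = 0.0493) and Tumor by 1.36 ± 0.31 (adjusted p = 0.0470), both close to the threshold.

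Cd6 encodes a receptor for CD166, the product of Alcam. The brightest of its 4 probes gave 12.52, 12.36 and 12.26 in Tumor+Allo/Y (d28), 11.36, 11.87 and 10.14 in Tumor+Allo/Y and 11.61, 11.70 and 10.09 in Tumor, against 7.76, 8.03 and 8.17 in Allo/Y. This gene differed most from Allo/Y among the brightest probes, by 3.14 ± 0.46 (adjusted p = 0.000614) in Tumor+Allo/Y, 3.15 ± 0.46 (adjusted p = 0.000885) in Tumor and 4.40 ± 0.46 (adjusted p = 6.8e-05) in Tumor+Allo/Y (d28), an 8.81-fold, an 8.86-fold and a 21.1-fold difference. Its 28-day samples lay close together and above all others, yet the difference from Tumor+Allo/Y of 1.26 ± 0.46 (adjusted p = 0.175) was not called, and samples 7 to 9 spread from 10.14 to 11.87. The next 2 probes in brightness differed from Allo/Y by 3.20 and 3.25 in Tumor+Allo/Y and by 4.35 and 4.51 at 28 days, and the 3 brighter probes were called alike. The dimmest probe, dark in Allo/Y, was at least 3.42-fold higher in Tumor+Allo/Y (d28), at least 1.79-fold higher in Tumor+Allo/Y and at least 1.82-fold higher in Tumor (adjusted p = 0.000482, 0.0107 and 0.0129).

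Skap1 encodes an adaptor that links the receptor to integrin adhesion. Its brightest probe gave 9.77, 9.53 and 9.41 in Tumor+Allo/Y (d28), 8.94, 9.11 and 8.58 in Tumor+Allo/Y and 9.09, 9.24 and 8.23 in Tumor, against 6.47, 6.67 and 6.57 in Allo/Y. The 28-day samples were the highest, but the gap to the 1-week groups was the smallest among the brightest probes in both comparisons: 0.69 ± 0.25 (adjusted p = 0.163) against Tumor+Allo/Y and 0.72 ± 0.25 (adjusted p = 0.130) against Tumor, neither called. Against Allo/Y, Skap1 rose by 2.31 ± 0.25 (adjusted p = 0.000117) in Tumor+Allo/Y, by 2.28 ± 0.25 (adjusted p = 0.000175) in Tumor and by 3.00 ± 0.25 (adjusted p = 1.67e-05) at 28 days. The second probe made the same calls with differences of 2.20, 2.15 and 2.85. The dimmest probe was above background on no Allo/Y array and was called in no comparison, with an adjusted p of 0.0652 for 28 days against Allo/Y.

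**Figure D2:**
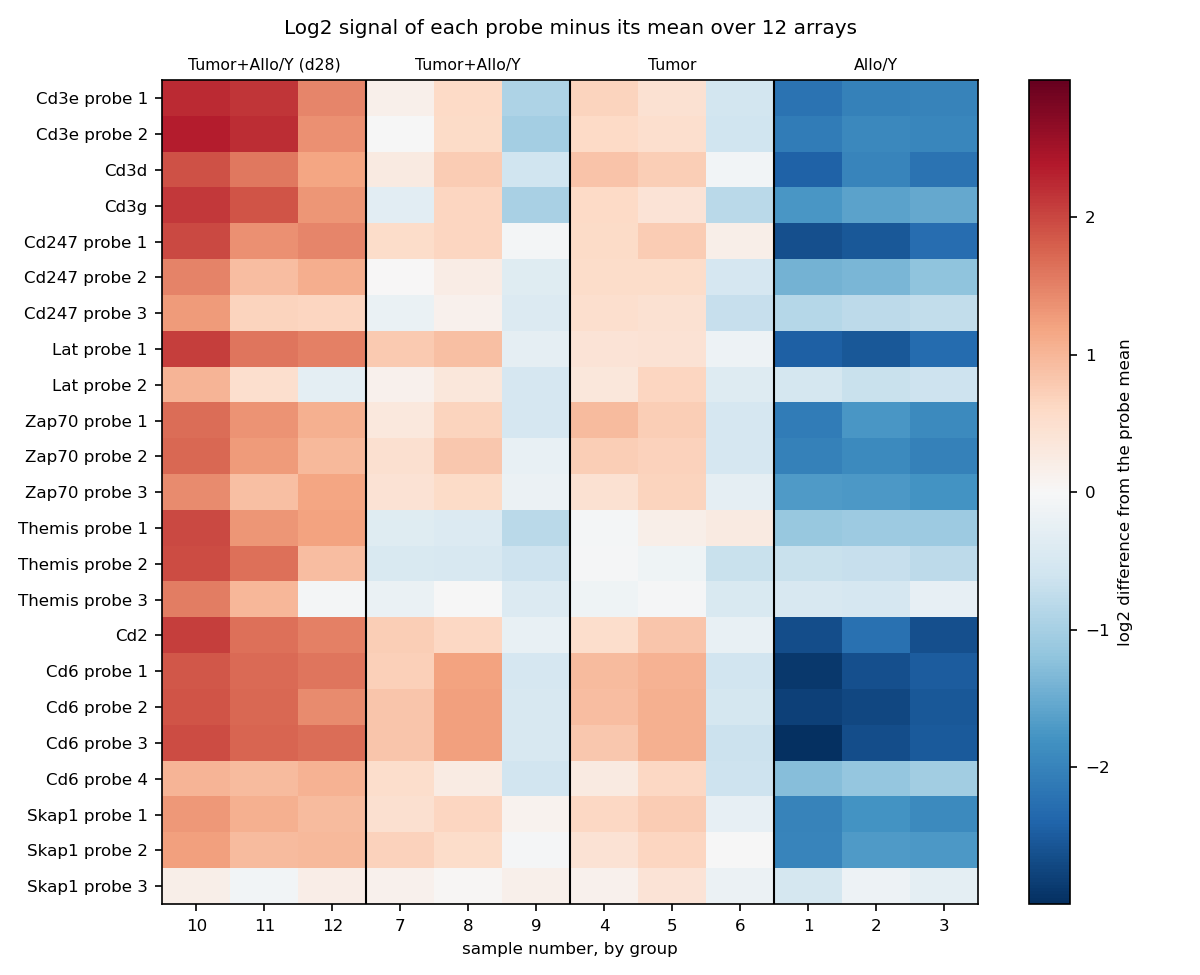
Log2 signal of the 23 probes minus each probe's own mean over the 12 samples, with samples 10 to 12 of Tumor+Allo/Y (d28), 7 to 9 of Tumor+Allo/Y, 4 to 6 of Tumor and 1 to 3 of Allo/Y from left to right. The 28-day samples are the 3 highest on 20 of 23 probes and the Allo/Y samples the 3 lowest on 21, and samples 9 and 6 are lower than the other samples of their groups on 22 of 23 probes.

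The comparison of Tumor+Allo/Y with Allo/Y asks how the combined transfer differed from Allo/Y cells alone at 1 week. Of 23 probes 18 were called higher and none lower, against 20.8% of all measured probes called higher and 23.7% called lower, and all 10 brightest probes were among them. Of these 10, Cd3g kept the call in 7 and Themis in 6 of 12 fits that left out 1 array, and the others in all 12. The median difference of the brightest probes was 2.33, against 0.02 over all measured probes. For Tumor against Allo/Y 19 of 23 were called higher and none lower, against 17.8% and 19.1% of measured probes, with a median of 2.48 for the brightest probes, against 0.03 over all. The groups did not overlap on 22 and 21 probes in these comparisons, against 29% and 27.1% of measured probes. All 8 probes that were dark on every Allo/Y array entered only through their signal elsewhere, so the 15 probes above background on all 12 arrays give a count free of that choice, and each of these 15 was called higher in both comparisons. In a fit of only the 15875 probes above background on all 12 arrays, these 15 kept their calls. That fit called 3991 probes higher and 3483 lower in Tumor+Allo/Y, and 3496 higher and 2752 lower in Tumor. Both comparisons share the Allo/Y samples.

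The comparison of Tumor+Allo/Y with Tumor asks what adding Allo/Y cells did. In the limma fit none of the 23 probes was called, against 0.00434% of measured probes called higher and 0% called lower, and 1 of 23 had an unadjusted p under 0.05. The brightest probes differed by −0.66 to 0.25, with a median of −0.18, against −0.03 over all measured probes. The 95% intervals extended 0.45 to 1.03 to either side of these differences, so smaller differences could go undetected with 3 mice a group. Without Tumor sample 6 and Tumor+Allo/Y sample 8, which stood apart, 4 probes were called lower in Tumor+Allo/Y than in Tumor: Cd3g at −1.14, Zap70 at −0.94 and 2 Cd247 probes at −0.73 and −0.77, with adjusted p of 0.0216, 0.0430, 0.0362 and 0.0333. Sample 6 was the lowest Tumor array on 22 probes and sample 8 the highest Tumor+Allo/Y array on 17, so leaving out this pair moves the differences downward by its choice, and these calls are no support for a direction. Over all 23054 measured probes, the fit without this pair called 1713 higher and 2304 lower, against 1 and 0 in the main fit. Leaving out single arrays called none of the 23.

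The comparison of Tumor+Allo/Y (d28) with Tumor+Allo/Y follows the same transfer over time. Of 23 probes 8 were called higher and none lower, against 2.2% of measured probes called higher and 0.447% called lower, and they belong to 5 genes: Cd3e, Cd3g, Cd247, Themis and Cd2. The brightest probes of these 5 rose by 1.23 to 2.02, and those of Cd3d, Lat, Zap70, Cd6 and Skap1 had differences of 0.69 to 1.41 that were not called. The median over the 10 was 1.31, against −0.0009 over all measured probes, and the groups did not overlap on 20 of 23 probes, against 12.9%. Without Tumor+Allo/Y sample 9, the lowest of its group, 2 of the 8 calls were left, both of them Themis probes, and the brightest probes of Cd3e, Cd3g, Cd247 and Cd2 had differences of 1.57, 1.60, 1.00 and 1.06 with adjusted p of 0.115, 0.152, 0.118 and 0.172. Without Tumor sample 6, which belongs to neither group but enters the shared estimate of spread, 16 probes were called, and without Tumor sample 6 and Tumor+Allo/Y sample 8 together 21, a choice that itself widens the difference on most probes. Leaving out sample 1, 3, 7, 10 or 11 left 2 calls, sample 2 left 3, sample 5 left 5, sample 4 left 6, sample 12 left 7 and sample 8 gave 10. Calls over all 23054 measured probes moved too. In the main fit 507 were called higher, without sample 9 60, without sample 6 1061 and without samples 6 and 8 together 2588. The brightest Themis probe was called in 12 of 12 fits that left out 1 array and in 13 of 13 other settings, whereas the brighter Cd3e probe was called in 5 of 12 and 10 of 14. Of the marker lists, leukocyte genes differed by −0.06 on average between these groups and none of the 12 was called, while Klrb1c, 1 of 6 natural killer cell markers, fell (−1.16, adjusted p = 0.0423) and Krt14, 1 of 8 epithelium markers, rose (3.40, adjusted p = 0.0307). Of 7 fibroblast and smooth muscle markers 3 rose, with sums of 14146 to 20420 in Tumor+Allo/Y (d28) and 7169 to 17512 in Tumor+Allo/Y. Of 5 neutrophil markers 1, Ngp, was called lower at 28 days (adjusted p = 0.0334), where it was above background on no array, and the median difference of the 5 was −1.04, with sums of 1788 to 5219 in Tumor+Allo/Y (d28) and 4362 to 7340 in Tumor+Allo/Y. Over all genes 1.93% were called higher and 0.476% lower. None of 4 B cell markers was called, with sums of 1032 to 2759 in Tumor+Allo/Y (d28) and 518 to 1132 in Tumor+Allo/Y. The part of these lists in the 28-day difference was not tested.

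Tumor+Allo/Y (d28) against Allo/Y gave the widest differences, with 22 of 23 probes called higher and none lower, against 19.9% and 21.8% of measured probes, and a median of 3.89 for the brightest probes, against 0.01 over all. The 8 probes dark on every Allo/Y array entered only through their signal elsewhere, so their direction is not free of that choice. Each probe above background on all 12 arrays was called higher. A fit of only the 15875 probes of that kind called 3747 higher and 3316 lower. When the 28-day samples were set against Tumor, 6 of 23 were called higher and none lower, against 2.11% and 0.881% of measured probes: the brightest probes of Cd3e, Cd247, Lat and Cd2 and 2 probes of Themis. The brightest probes differed from Tumor by 0.72 to 1.76. In this comparison the count again moved with single arrays. It was 0 without sample 10, 1 without sample 4, 2 without sample 1, 2, 3, 5, 6 or 11, and 3 without sample 7. It was 6 without sample 12, 7 without sample 8 and 8 without sample 9. Over all measured probes 486 were called higher in the main fit, and 15 to 527 when 1 array was left out.

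**Figure D3:**
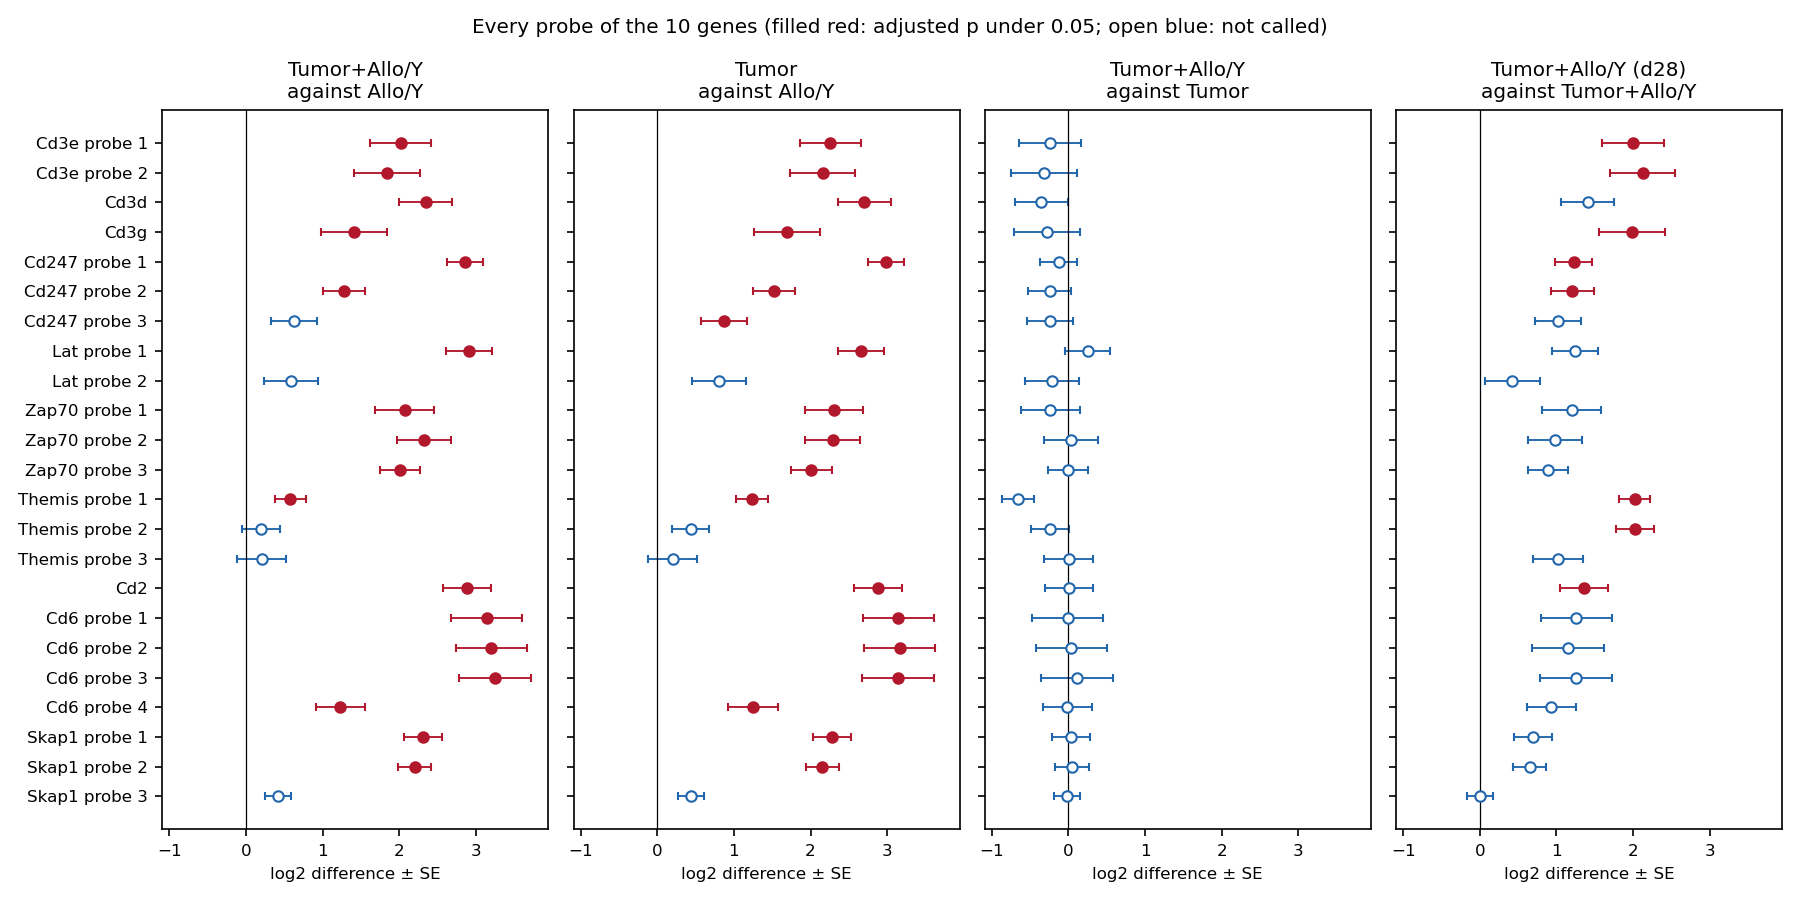
Difference on the log2 scale, with its standard error, for each of the 23 probes in 4 comparisons, where filled red points were called at an adjusted p under 0.05 and open blue points were not; probes of a gene are numbered by brightness. Calls fill the comparisons with Allo/Y (18 and 19 of 23), are absent between Tumor+Allo/Y and Tumor (0 of 23) and are 8 of 23 for 28 days against 1 week.

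Since the leukocyte genes also differed from Allo/Y, by 2.27 in Tumor+Allo/Y, 2.07 in Tumor and 2.21 in Tumor+Allo/Y (d28) on average, the 10 genes were also expressed relative to the mean of those leukocyte genes on each array. On this scale the mean of the 10 brightest probes was 0.07 ± 0.34 in Tumor+Allo/Y (d28), with 0.29, 0.25 and −0.31 in samples 10, 11 and 12. It was −1.43 ± 0.80 in Tumor+Allo/Y (−1.34, −0.68 and −2.26), −1.07 ± 0.81 in Tumor (−0.55, −0.65 and −2.00) and −1.41 ± 0.03 in Allo/Y. The 3 samples at 28 days thus lay above all others, and the 1-week groups overlapped. Relative to leukocyte genes, 0 of the 10 brightest probes were called higher in Tumor+Allo/Y than in Allo/Y and 1 lower, Themis at −1.69, against 0.681% of measured probes higher and 93.9% lower. In Tumor 1 was higher, Cd247 at 0.91 (adjusted p = 0.0212), and 1 lower, Themis at −0.84, against 0.651% and 93.8%. At 28 days 6 of 10 were higher than in Allo/Y and none lower, against 0.876% and 93.7%: Cd3e by 1.81, Cd3d by 1.54, Cd247 by 1.87, Lat by 1.94, Cd2 by 2.03 and Cd6 by 2.19. Against Tumor+Allo/Y on this scale 1 brightest probe was called at 28 days, Themis at 2.08 (adjusted p = 0.0180), against 0.252% of measured probes higher and 0.0954% lower. In the comparisons with Allo/Y the scale lowers every probe by the leukocyte difference. This makes lower calls many and higher calls few over all probes, so these shares are no measure to judge the 10 genes by. Themis was above background on no Allo/Y array, so its level there is only an upper limit and its direction against Allo/Y on this scale is not settled.

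**Figure D4:**
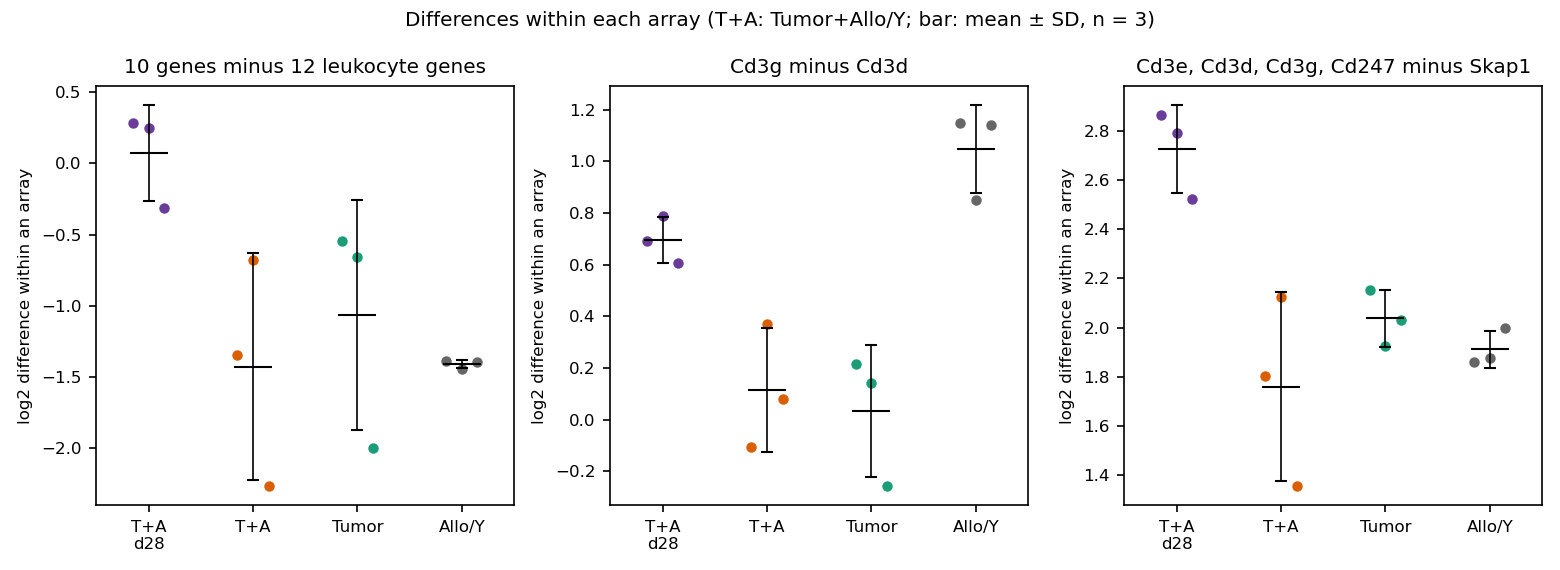
Differences of log2 signal within each sample, by group, with points for mice and marks for mean and SD of 3: the mean of the 10 genes minus the mean of 12 leukocyte genes, Cd3g minus Cd3d, and the mean of Cd3e, Cd3d, Cd3g and Cd247 minus Skap1. The first panel puts the 28-day samples at 0.07 ± 0.34 above all others, the second puts 28 days (0.70 ± 0.09) and Allo/Y (1.05 ± 0.17) above both other groups, and the last puts 28 days (2.72 ± 0.18) above all others.

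The 10 genes did not keep a fixed ratio to each other. These ratios were picked after the values were seen and carry no test, and since probes differ in brightness, their differences between groups can be read but their levels cannot. Cd3g minus Cd3d was 0.70 ± 0.09 in Tumor+Allo/Y (d28), 0.12 ± 0.24 in Tumor+Allo/Y, 0.03 ± 0.25 in Tumor and 1.05 ± 0.17 in Allo/Y, without overlap except between Tumor+Allo/Y and Tumor. Relative to its neighbour Cd3d, Cd3g was thus highest in Allo/Y. The mean of Cd3e, Cd3d, Cd3g and Cd247 minus Skap1 was 2.72 ± 0.18 in Tumor+Allo/Y (d28), 1.76 ± 0.38 in Tumor+Allo/Y, 2.04 ± 0.11 in Tumor and 1.91 ± 0.08 in Allo/Y, so that the receptor chains were high relative to this adaptor in the 28-day samples. Cd3e minus Cd6 was 0.62 ± 0.31, −0.12 ± 0.11, 0.11 ± 0.30 and 1.00 ± 0.10 in the same groups. Among the members, Cd3d followed the mean pattern of the 10 most closely over the 12 samples (root mean square difference of centred log2 values 0.137) and Themis least (0.686), with Cd3g at 0.387 and Cd6 at 0.408.

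Other genes of the pathway were read from lists by function, with 1 probe a gene. Of 15 measured kinases and adaptors of the first steps outside the 10 genes, 12 rose and none fell against Allo/Y in each of Tumor+Allo/Y, Tumor and Tumor+Allo/Y (d28). Over all genes 20.2%, 17.7% and 18.7% were called higher and 26.8%, 21.4% and 24.2% lower in these comparisons. Among them were Lcp2, which encodes SLP-76, the partner of LAT (3.03, 2.82 and 2.92), and the kinase gene Fyn (2.55 in Tumor+Allo/Y and 3.05 at 28 days). Prkcq, which encodes protein kinase C theta, was called higher in Tumor+Allo/Y (2.43) and in Tumor (2.69), but was above background on 1 of 3 Allo/Y arrays, so the size of these differences is uncertain. At 28 days against Tumor+Allo/Y 0 of the 15 were called, against 1.93% of genes called higher and 0.476% lower, and their median difference was 0.33. Of 15 measured negative regulators 13, 13 and 14 rose against Allo/Y in Tumor+Allo/Y, Tumor and Tumor+Allo/Y (d28), among them Ptpn22, a phosphatase gene (3.34 at 28 days), and Dok2, an adaptor gene (3.34 in Tumor+Allo/Y and 3.10 in Tumor), and 1, Lax1, was called higher at 28 days than in Tumor+Allo/Y (adjusted p = 0.0408), where it was above background on 1 of 3 arrays. None of them was called lower in any of these comparisons. The median differences from Allo/Y in Tumor+Allo/Y, Tumor and Tumor+Allo/Y (d28) were 1.94, 1.93 and 2.55 for the kinases and adaptors. For the negative regulators they were 1.59, 1.75 and 2.00. The mean of the leukocyte genes differed by 2.27, 2.07 and 2.21, and whether these lists rose beyond it was not tested.

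Of 9 measured surface partners 8 rose and 1 fell against Allo/Y in each of the other groups. Over all genes 17.7% to 20.2% were called higher and 21.4% to 26.8% lower in these comparisons. The one that fell was Alcam, the gene of the CD6 ligand (−0.78 in Tumor+Allo/Y, −1.18 in Tumor and −1.25 at 28 days). At 28 days Cd8b1, the CD8 beta chain of cytotoxic T cells, exceeded Tumor+Allo/Y by 2.20 (adjusted p = 0.00988) and Cd28, a costimulatory receptor gene, by 1.95 (adjusted p = 0.0374). These were the 2 called of 9, against 1.93% of genes called higher and 0.476% lower. Another Cd8b1 probe was called in the opposite direction, lower than in Allo/Y, both in Tumor+Allo/Y and in its 28-day samples. Of 16 measured early targets of receptor signaling 12 rose and 1 fell against Allo/Y in each of Tumor+Allo/Y and Tumor at 1 week. At 28 days 13 rose and 1 fell, and the shares of all genes were those given for the surface partners. They include Ifng, the interferon gamma gene (2.87, 2.86 and 3.94), and Tnfrsf9, which encodes 4-1BB (2.99, 3.21 and 3.50), in the same order of groups, while the one that fell was Myc (−1.08, −1.01 and −0.59). At 28 days Nr4a3, a nuclear receptor gene that receptor signaling induces, exceeded Tumor+Allo/Y by 1.38 (adjusted p = 0.0161), the 1 called of 16, against the same 1.93% and 0.476% of genes. In Tumor+Allo/Y against Tumor none of these 4 lists had a call, against 0% of genes in either direction. The median differences from Allo/Y in Tumor+Allo/Y, Tumor and Tumor+Allo/Y (d28) were 1.81, 1.79 and 2.22 for the surface partners. For the early targets they were 1.27, 1.30 and 1.49. The leukocyte genes, which share Ptprc with the surface partners, differed by 2.27, 2.07 and 2.21 on average, and whether these lists rose beyond that was not tested. No probe is annotated to one of the 12 listed symbols of the receptor's own variable and constant chains alone, so those chains were not measured under these names. Probes annotated to more than 1 symbol were not used. Trbv13-2, a variable segment of the beta chain that is outside the list, was measured.

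The genes whose pattern over the 12 samples lay nearest to the mean of the 10, by root mean square difference of centred log2 values among 11961 other genes, were Trbv13-2 (0.172), Ptpn22 (0.180), Stat4 (0.194), Thy1 (0.199) and Tigit (0.200). Nearest to Cd3e alone were, outside the 10 genes, Bcl11b (0.202), Cd27 (0.237), Tigit (0.258), Cd28 (0.263) and Fasl (0.269). Thy1 encodes a surface protein of mouse T cells, Bcl11b a transcription factor of the T lineage, and Tigit an inhibitory receptor of T and natural killer cells. The samples differ in the level of leukocyte genes, which all of these likeness values share.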

How the data were processed

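RNA of CD45+ prostate cells from 12 mice in 4 groups of 3 was measured on Illumina BeadChips; Trizol extraction and staining of biotinylated cRNA with Streptavidin-Cy3 are given per the labels' protocols. The authors deposited signal intensity on a linear scale for 45281 probes, without normalization, and a detection p-value per probe and array. A normalized table of linear intensity, also deposited by the authors, has columns that share 1 maximum (35863.8), and each of its 12 columns matched its own raw array; it served as an alternative. GenomeStudio is named in the submitters' processing notes, without a version. The array build and any scan batch are not given in the sources used here.

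With R 4.3.3 and limma 3.58.1, the background was removed with negative-control values that limma infers from the detection p-values, an offset of 16 was added, arrays were quantile normalized and log2 was taken of these deposited signals. The filter kept 23054 probes whose detection p was below 0.05 on 3 or more arrays. One limma fit with a mean per group over the 12 arrays gave two-sided p-values, adjusted over the 23054 probes within each comparison (residual degrees of freedom 8, prior 2.74). The fit was tested on simulated data. For arrays, their number limits the precision, and an exact test of 3 against 3 cannot go below p = 0.1. Every probe annotated to 1 of the 10 genes and to no other is reported. For other pathway lists 1 probe a gene was used, the brightest, and at most 3 called genes with the largest rise and 3 with the largest fall per list and comparison were named. Nearest patterns were the 5 genes of smallest root mean square difference. Gene names and lists rest on the array annotation and RefSeq. The members and lists were chosen with earlier results of these data known, some lists having been used in that work, so that no count here is independent support for a pattern already seen. The labels describe mice, so replicates are separate animals. Alternatives covered background correction, normalization, the authors' values, detection filters, 1 probe a gene, the arrays fitted, variance model, array weights, a minimum fold of 1.5, leukocyte content and leaving out arrays.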

Additional observations from a re-analysis of the deposited data

How the results depend on the processing

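The counts against Allo/Y held within 1.5 times under all alternatives but 1, and leaving out 1 array gave 16 to 20 called probes of 23 for Tumor+Allo/Y, 18 to 21 for Tumor and 21 to 23 for Tumor+Allo/Y (d28), with 20 to 23 for the F test. The exception was the shift of each array to an equal mean of 12 leukocyte genes, which subtracts 2.27, 2.07 and 2.21 from those comparisons. It left 8 calls for Tumor+Allo/Y (0 higher, 8 lower), 7 for Tumor (1 higher, 6 lower) and 13 for Tumor+Allo/Y (d28) (10 higher, 3 lower). The 29 probe changes that changed sign with a call in the main fit or under the alternative all turned negative on that scale. For Tumor+Allo/Y against Allo/Y they were −0.25 and −0.44 for Cd3e, −0.86 for Cd3g, −0.99 and −1.65 for Cd247, −1.69 for Lat, −0.20 and −0.27 for Zap70, −1.69, −2.08 and −2.07 for Themis, −1.04 for Cd6, and −0.071 and −1.85 for Skap1. For Tumor against Allo/Y they were −0.38 for Cd3g, −0.55 and −1.20 for Cd247, −1.27 for Lat, −0.060 for Zap70, −0.84, −1.64 and −1.87 for Themis, −0.82 for Cd6 and −1.64 for Skap1. For Tumor+Allo/Y (d28) against Allo/Y they were −0.57 for Cd247, −1.20 for Lat, −0.99 for Themis, −0.049 for Cd6 and −1.79 for Skap1. The 8 probes above background on no Allo/Y array are among them, so their direction there is not settled.

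The 28-day calls moved most, and calls over all measured probes moved too. Against Tumor+Allo/Y 507 of 23054 were called higher in the main fit, 14 with a minimum fold of 1.5 and 1748 with array weights. In the comparison with Tumor these were 486, 7 and 1952. Against Tumor+Allo/Y the count of 8 became 5 with equal medians, 3 without a detection filter, 1 with only both groups in the fit, 1 with a minimum fold of 1.5, 2 on the leukocyte scale, 21 with array weights and 21 without Tumor sample 6 and Tumor+Allo/Y sample 8; leaving out 1 array gave 2 to 16. Against Tumor the count of 6 became 3 with equal medians, 3 without a filter, 3 of 10 with 1 probe a gene (5 of those probes otherwise), 0 with only both groups, 0 with a minimum fold of 1.5, 0 on the leukocyte scale and 12 with array weights; leaving out 1 array gave 0 to 8. For Tumor+Allo/Y against Tumor the count of 0 became 4, all lower, without Tumor sample 6 and Tumor+Allo/Y sample 8, a choice of arrays that itself lowers these differences, and stayed 0 when 1 array was left out. Over all 23054 measured probes that choice called 1713 higher and 2304 lower, against 1 and 0 in the main fit. Settings without a filter adjust over more probes, and fits of only both groups have fewer arrays; for the other settings the cause was not tested. Of 1806 probe changes under settings other than leaving out 1 array, 1577 kept their direction and side of the threshold. Another 105 lost the call and 60 gained one. A further 29 changed sign with a call in at least 1 of the fits, and 35 changed sign with a call in neither. No paired analysis was possible because each sample number occurs once and no label pairs mice across groups. Dim probes limit Themis and the dimmer probes of Cd247, Lat, Zap70, Cd6 and Skap1, which have bounds only in Allo/Y.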

Other observations

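Other leukocytes were also present beside the T cell genes. Of 9 measured macrophage markers 8 rose against Allo/Y in each of Tumor+Allo/Y (d28), Tumor+Allo/Y and Tumor, against 18.7%, 20.2% and 17.7% of all genes called higher, and their summed signal was 58151 to 73143 in Tumor+Allo/Y (d28), 73895 to 84353 in Tumor+Allo/Y, 58827 to 84919 in Tumor and 23020 to 33358 in Allo/Y. The median differences of the macrophage markers in these groups were 1.17, 1.35 and 1.19, below the 2.21, 2.27 and 2.07 of the leukocyte genes. At 28 days all 4 measured B cell markers were called higher than in Allo/Y, against the same 18.7% of genes, among them Fcrla (2.32), Cd79b (2.28) and Blk (1.70). The median difference of the 4 was 1.99. Of 5 neutrophil markers 1 was called higher than in Allo/Y in Tumor+Allo/Y (d28), 3 in Tumor+Allo/Y and 1 in Tumor. Tumor sample 6, in which 9 of the 10 T cell genes were lowest of the group, had a mean neutrophil marker level of 8.93, against 6.86 and 7.34 in the other Tumor samples. The same sample had a mean epithelium marker level of 7.24, against 9.63 and 9.45 in the others. Whether these cells have a part in the levels of the 10 genes was not tested.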
